A study of Mus musculus with 71 samples.

Results

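The Iroquois homeobox genes of the mouse lie in a pair of clusters, with Irx1, Irx2 and Irx4 on chromosome 13 and Irx3, Irx5 and Irx6 on chromosome 8. Their chromatin loops were taken from H3K27ac HiChIP, which joins chromatin conformation capture to immunoprecipitation and so enriches contacts between active promoters and enhancers. All loops with an anchor within 2 kb of a GENCODE transcription start site (TSS) of any of the 6 genes were selected, which gave 40 loops of 24244 in all, with 14 loops at the chromosome 13 cluster and 26 at the chromosome 8 cluster. The measured samples were 2 mouse synovial sarcoma (SyS) tumors of a single group, H3K27ac HiChIP replicates 1 and 2, and the authors merged their loops into a single list. Both tumors carried hSS2, a Rosa26 knock-in of human SS18::SSX2 that stays silent until Cre acts on it. They were initiated by TATCre protein injected into the hindlimb at day 8 of life, which can recombine any cell type it enters. No HiChIP of untransformed tissue was analysed here. Whole tumors were dissociated, so loops of tumor cells and of other cells in the tumor cannot be told apart.

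Iroquois proteins are homeodomain transcription factors of the TALE class, named for the extra residues in the loop of their homeodomain, and they share a short Iro box. They pattern the neural tube, heart, limb, kidney and retina, often by repressing other patterning genes. The clusters arose by duplication, and their members lie in long stretches with few other protein-coding genes, where enhancers are shared among members. Intronic sequence of Fto, a gene next to the chromosome 8 cluster that encodes an RNA demethylase, is known to hold enhancers that act on Irx3 and Irx5. Irx1 and Irx2 are among the genes that the study lists as activated in sarcomagenesis, and that list was made from expression data not used here.

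The sequences shown here are from both anchors that reached all 3 chromosome 8 members, from the only anchor away from a TSS that reached 2 chromosome 13 members, and from the promoter of Irx2, at an end of the loop with the most tags. Each anchor stretch is the central 300 bases, on the plus strand of mm10 and read from GRCm38.p6, and the promoter is the 250 bases before the RefSeq start of Irx2 (GRCm38.p6, plus strand). Capitals mark GATC, the site cut by MboI before ligation. The stretches are an Fto intron anchor at chr8:91380543-91380842, an Fto intron anchor at chr8:91572328-91572627, the intergenic chromosome 13 anchor at chr13:72298988-72299287 and the Irx2 promoter at chr13:72628570-72628819.
Fto intron anchor nearer to the Fto start: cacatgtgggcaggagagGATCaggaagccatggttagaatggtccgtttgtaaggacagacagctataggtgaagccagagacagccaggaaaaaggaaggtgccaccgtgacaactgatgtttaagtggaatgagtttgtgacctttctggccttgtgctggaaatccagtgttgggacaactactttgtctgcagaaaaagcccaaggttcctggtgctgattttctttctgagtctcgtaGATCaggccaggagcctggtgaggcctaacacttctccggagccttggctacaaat
Fto intron anchor nearer to the Fto end: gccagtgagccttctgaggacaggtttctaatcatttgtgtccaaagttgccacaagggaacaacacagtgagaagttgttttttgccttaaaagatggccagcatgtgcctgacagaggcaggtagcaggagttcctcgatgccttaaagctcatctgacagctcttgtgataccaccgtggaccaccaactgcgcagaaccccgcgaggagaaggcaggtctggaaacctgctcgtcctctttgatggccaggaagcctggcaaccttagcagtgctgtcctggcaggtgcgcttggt
Anchor between Irx1 and Irx2: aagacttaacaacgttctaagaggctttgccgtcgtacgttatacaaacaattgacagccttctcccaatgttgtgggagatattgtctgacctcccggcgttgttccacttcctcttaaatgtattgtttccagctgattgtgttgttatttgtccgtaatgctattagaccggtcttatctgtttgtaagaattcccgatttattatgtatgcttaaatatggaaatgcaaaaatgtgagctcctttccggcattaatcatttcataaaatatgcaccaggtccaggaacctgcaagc
Irx2 promoter: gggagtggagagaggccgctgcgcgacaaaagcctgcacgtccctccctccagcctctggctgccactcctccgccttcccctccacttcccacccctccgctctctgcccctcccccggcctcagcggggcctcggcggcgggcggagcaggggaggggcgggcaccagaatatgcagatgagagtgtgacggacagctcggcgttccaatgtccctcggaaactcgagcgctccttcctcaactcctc
GATC occurred 2 times in the stretch nearer to the Fto start and 0 times in the other 3 stretches. It was present in the central 300 bases of 54.5% of the 16864 distinct anchors of the whole list, and in 48.0% of the RefSeq promoters of 300 bases. Over their full width the same anchors did hold cut sites, with 5 in the anchor nearer to the Fto start, 3 in the one nearer to the Fto end and 7 in the anchor between Irx1 and Irx2.

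Loops reached 5 of the 6 Iroquois promoters, against 45.8% of all protein-coding genes with at least 1 loop. The loop score of a promoter is the sum of the paired-end tags, the read pairs that join both anchors, over its loops. It was 19 for Irx3 (exact Poisson 95% interval 11.4 to 29.7), 17 for Irx1 (9.90 to 27.2), 17 for Irx2 (9.90 to 27.2), 11 for Irx5 (5.49 to 19.7) and 4 for Irx6 (1.09 to 10.2). Irx4 had 0 tags and no anchor of the list within 2 kb of its start, so no limit was set on its contacts. Where both promoters of a pair had anchors, a count of 0 is given with a one-sided limit of 3. The intervals cover counting error only, and there is no spread between replicates, since the list is merged. Neighbors in this order from Irx3 to Irx5, and Irx5 and Irx6, did not differ beyond these intervals, while the interval of Irx3 lay above that of Irx6. A median score of 4 was found over the 10050 looped protein-coding genes, and a score as high as that of Irx3 was reached by 5.13% of all protein-coding genes. For Irx1 and Irx2 that share was 5.93%, for Irx5 9.79% and for Irx6 24.7%. The scores of Irx1 and Irx2 are not separate measurements, since 9 tags of loops that join them count in both. With loops between members left out, Irx1 and Irx2 had 8 tags each, below their intervals. Irx3 then had 16 and Irx5 8, inside theirs.

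**Figure D1:**
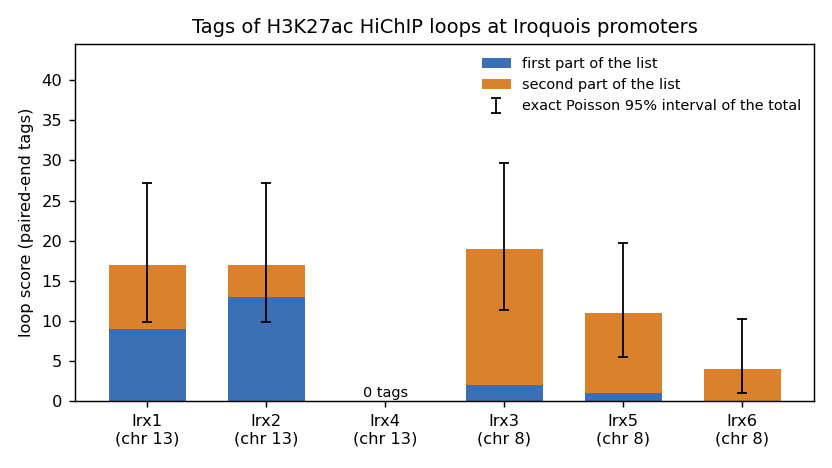
Loop score in paired-end tags (y axis) of each Iroquois gene (x axis), stacked by the first and second part of the merged list, with exact Poisson 95% intervals of the total as bars. Irx4 has 0 tags, and the chromosome 8 genes Irx3, Irx5 and Irx6 draw nearly all of their tags from the second part.

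The merged list was made of 2 parts placed one after the other, each sorted by position. Neither is labeled with a tumor, and none was inferred. The first part held 68.9% of the 41574 tags of the whole list and the second 31.1%, and 78.0% of the loops rested on a single tag. The order of the members depended on the part and on the FDR. In the first part alone Irx2 had 13 tags, Irx1 9 and Irx3 2, and in the second part Irx3 had 17, Irx1 8 and Irx2 4. At an FDR under 0.01 the scores were 14 for Irx1, 10 for Irx2, 8 for Irx3, 4 for Irx5 and 0 for Irx6. The genome-wide shares given above are for the pooled tags.

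The question put to the loops was how the clusters compare. Loops at the chromosome 13 promoters held 25 tags (exact Poisson 95% interval 16.2 to 36.9) and those at the chromosome 8 promoters 31 tags (21.1 to 44.0). The chromosome 13 cluster thus held 44.6% of the 56 tags (Clopper-Pearson 95% interval 31.3 to 58.5%). In these pooled tags a difference between the clusters was not detectable at this depth. The pooled share combines parts of the list in which the clusters lay in opposite order, as given below. No test was made, since tags of the same loop and loops of the same anchor are not independent.

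The clusters differed by part of the list when counted in tags, though tags of the same loop are not independent. In the first part the chromosome 13 cluster had 14 tags and the chromosome 8 cluster 2, so that chromosome 13 held 87.5% (61.7 to 98.4%). In the second part the clusters had 11 and 29 tags, and chromosome 13 held 27.5% (14.6 to 43.9%), an interval that does not reach that of the first part. Of the 14 first-part tags, 8 came from a single loop. Without the loops that join Irx1 to Irx2, the chromosome 13 share was 75.0% of 8 tags in the first part (34.9 to 96.8%) and 25.6% of 39 tags in the second (13 to 42%), and these intervals overlap. Counted in loops, the chromosome 8 cluster had 2 in the first part and 24 in the second, and the chromosome 13 cluster 6 and 8. The chromosome 13 share of loops was 75.0% in the first part (34.9 to 96.8%) and 25.0% in the second (11.5 to 43.4%). These intervals overlap too. Such overlap does not show that the parts are alike, and the first part held only 8 member loops.
The chromosome 8 genes were also low in first-part tags when set beside other promoters. The first part gave 10.5% of the tags of Irx3 (1.30 to 33.1%) and 9.09% of those of Irx5 (0.230 to 41.3%). Among 2397 protein-coding genes with a loop score of 10 or more, the median was 81.5%, and 2.54% of these genes had a first-part share at or below that of Irx3. The corresponding value was 2.34% for Irx5, 14.6% for Irx1 and 40.6% for Irx2. Irx3 and Irx5 share anchors and a loop, so their shares are not independent.

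Irx1 (ENSMUSG00000060969.9, chromosome 13, 71957921 to 71963723, minus strand), a gene that patterns lung, kidney and heart, had 7 loops, with 9 tags in the first part of the list and 8 in the second. A loop of 1 tag used an anchor at 71955858 to 71957901, beyond the downstream end of Irx1 and also within 2 kb of the start of Gm40999. With a window of 1 kb this loop was lost and the score of Irx1 was 16. Irx2 (ENSMUSG00000001504.10, chromosome 13, 72628820 to 72634198, plus strand), which is expressed together with Irx1 in many tissues, had 9 loops, with 13 tags in the first part and 4 in the second. The promoters of Irx1 and Irx2, 665.1 kb apart, were joined to each other by 2 loops that held 9 of the 25 tags of the cluster. The first-part loop ran from the anchor at 71962003 to 71965278 to the anchor at 72628341 to 72630762 and had 8 tags, with an FDR listed as 0. In the second part the same promoters were joined by 1 tag (FDR 0.0118), and the anchor at Irx2 was wider there, from 72626893 to 72630762. Both versions of the Irx2 anchor also covered the start of Gm20554, a long noncoding RNA gene that runs in the opposite direction, so the tags of both starts cannot be separated.
The contact of Irx1 with Irx2 was strong for its span. Of the 12129 loops in the list that span 500 kb or more, 6 had 8 or more tags, which is 0.0495%, and 91.6% rested on a single tag. The other 5 all lay in the first part too. Among them, a loop of 17 tags joined the start of Fip1l1 or Scfd2 to that of Pdgfra over 621.7 kb, and a loop of 11 tags joined Cyp51 to Fzd1 over 652.5 kb. These genes were named after their values were seen, because they share this class of loops.

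The remaining contacts of Irx1 and Irx2 went mainly to intergenic sequence. An anchor between the genes, from 72296879 to 72301395, was joined to Irx1 by 2 tags (FDR 0.000532) and to Irx2 by 1 tag, and its nearest TSS, of Gm4052, was 48.8 kb away. Irx1 reached over Irx2 in a pair of loops of 2 tags each. The first ended at 72638531 to 72642059, 5.93 kb beyond the last annotated start of Irx2 (FDR 0.000249), and the second at 72894601 to 72898632, in the gap between Irx2 and Irx4 (FDR 0.000248). Irx2 reached towards Irx1 with 2 tags at 72099720 to 72102239 (FDR 0.00136), 136.0 kb from the nearest TSS, which is that of Irx1. Single tags joined both genes to the promoter of Ice1, a component of the little elongation complex, over 1326 kb for Irx1 and 1992 kb for Irx2. A single tag also joined Irx2 to the promoter of Tert, the catalytic subunit of telomerase, over 997.8 kb, a loop that passes over Irx4.
Irx4 (ENSMUSG00000021604.15, chromosome 13, 73260479 to 73269608, plus strand), a marker of ventricular heart muscle, was not reached by any loop. The anchor of the list nearest to its start was 66.9 kb away, at the shared promoter of Ndufs6 and Mrpl36, so the list held no anchor at this gene. Joins of Irx4 with Irx1 or Irx2 had 0 tags. Without an anchor at Irx4 none could be listed, so this count sets no limit on such contacts.

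**Figure D2:**
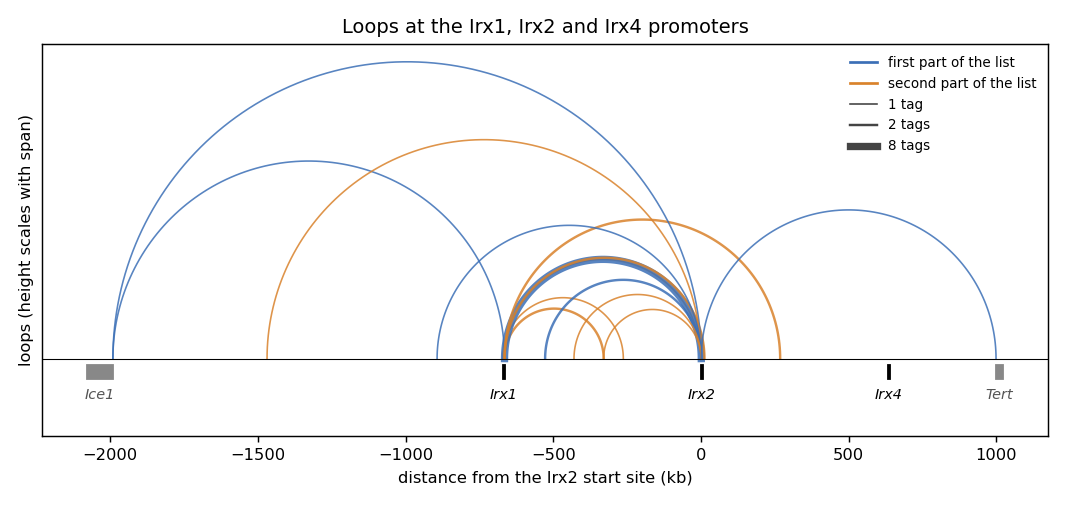
Loops at the chromosome 13 cluster by distance from the Irx2 start site in kb (x axis); each arc joins the midpoints of both anchors, its height scales with span, its width with tags, and its color gives the part of the list. The thick arc is the loop of 8 tags between Irx1 and Irx2, and no arc ends at Irx4.

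Irx3 (ENSMUSG00000031734.13, chromosome 8, 91798525 to 91802067, minus strand), which acts in neural tube patterning and in the conduction system of the heart, had 15 loops, the most of the 6 genes, with 2 tags in the first part of the list and 17 in the second. Irx5 (ENSMUSG00000031737.11, chromosome 8, 92357625 to 92376286, plus strand), which acts with Irx3 in limb and heart, had 9 loops, with 1 tag in the first part and 10 in the second. Irx6 (ENSMUSG00000031738.14, chromosome 8, 92674288 to 92680956, plus strand), known from retinal bipolar cells, had 4 loops of a single tag each, all in the second part. No loop of these genes had more than 2 tags, whereas the chromosome 13 cluster held a loop of 8 in the first part. In the second part no loop of the chromosome 13 cluster had more than 2 tags either.
The promoters of Irx3 and Irx5, 555.6 kb apart, were joined by 2 tags in the second part (FDR 0.000333) and 1 tag in the first (FDR 0.0314). The joins of Irx1 with Irx2 and of Irx3 with Irx5 made up the 4 loops, of all 40, that overlapped a loop of the other part at both anchors. Over the whole list 7.34% of loops did so, and 4.44% of those that span 500 kb or more. Irx6 was joined to neither Irx3 nor Irx5, although its start lies 316.5 kb from that of Irx5. The first part held no anchor at Irx6, so the count of 0 sets no limit there. In the second part 0 tags allow up to 3 for each pair. Both anchors at Irx3 also held the start of its antisense transcript Irx3os, and both anchors at Irx5 lay within 2 kb of the start of Crnde, a divergent noncoding RNA gene, so contacts of these starts and those of Irx3 and Irx5 cannot be told apart.

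Fto introns were a shared end point of the chromosome 8 cluster. Fto (chromosome 8, 91313525 to 91668439, plus strand) contained 4 anchors more than 2 kb from every TSS, all intronic. Their nearest TSSs were 3.25 to 17.7 kb away. From these anchors 9 loops with 11 tags ran to Irx3, Irx5 and Irx6. The anchor at 91379752 to 91381633, whose sequence is given above as the one nearer to the Fto start, was joined to Irx3 by 2 tags (FDR 0.000438), to Irx5 by 1 tag and to Irx6 by 1 tag. The anchor at 91571083 to 91573872, nearer to the Fto end, reached the same 3 promoters with 1 tag each. The spans to these anchors were 228.8 and 420.6 kb from Irx3, 784.3 and 976.1 kb from Irx5, and 1102 and 1294 kb from Irx6.
A narrower Fto anchor at 91625105 to 91626479, which also lies in an intron of the antisense gene Gm3235, was joined to Irx3 by 2 tags (FDR 0.00145) and to Irx5 by 1 tag. The last of them, at 91652479 to 91654237, had a single tag to Irx3. All 11 of these tags came from the second part of the list. The promoter shared by Fto and Rpgrip1l, a gene of the ciliary transition zone, was joined to Irx5 by a single tag over 1043 kb and to Irx3 and Irx6 by none.
Between Irx3 and Irx5 an intergenic anchor at 92113895 to 92116572 was joined to Irx5 by 2 tags (FDR 0.000871) and to Irx3 by 1 tag. An anchor in an intron of Crnde, at 92330330 to 92333075, was joined to Irx3 by 2 tags (FDR 0.000333). Longer contacts of the cluster had a single tag each, such as that of Irx3 with the promoter of Lpcat2, a phospholipid acyltransferase gene, over 1054 kb, and that of Irx6 with an anchor in the chromatin remodeler gene Chd9 at the start of Gm45640, over 1798 kb.

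**Figure D3:**
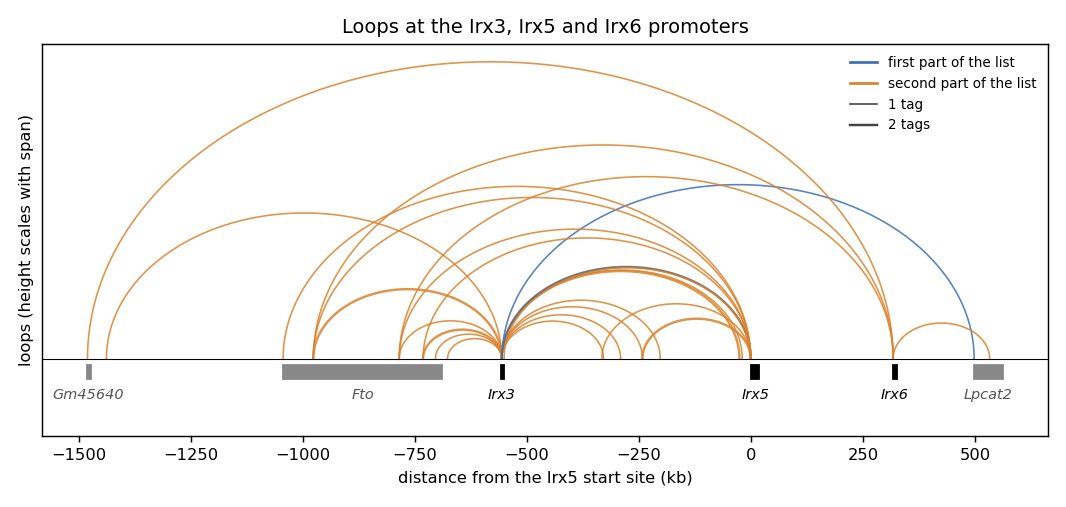
Loops at the chromosome 8 cluster by distance from the Irx5 start site in kb (x axis); each arc joins the midpoints of both anchors, its height scales with span, its width with tags, and its color gives the part of the list. Arcs from Irx3, Irx5 and Irx6 end at the same positions inside Fto, and the arcs of the second part outnumber those of the first by 24 to 2.

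Both clusters were joined mostly to sequence away from promoters. Of the 35 distinct distal anchors of the members, 14 lay within 2 kb of any TSS (40.0%, Clopper-Pearson 95% interval 23.9 to 57.9%), against 79.3% of the 15025 distal anchors of all looped protein-coding promoters. A difference between the clusters in this measure was not detectable at this depth, with 5 of 13 anchors near a TSS on chromosome 13 (38.5%, 13.9 to 68.4%) and 9 of 22 on chromosome 8 (40.9%, 20.7 to 63.6%). The second part of the list had fewer anchors near a TSS over all protein-coding promoters too, at 75.9%, and within it the members had 8 of 27 (29.6%, 13.8 to 50.2%). In the first part the members had 7 of 9 (77.8%, 40.0 to 97.2%) and all protein-coding promoters 85.7%, so the difference was not detectable there. The number of other protein-coding genes with a start within 500 kb was 0 for Irx1 and Irx2, 2 for Irx3, 3 for Irx5, 8 for Irx6 and 9 for Irx4, against a median of 16 over looped protein-coding genes. The anchors near a TSS were 3 of 7 for Irx1, 3 of 8 for Irx2, 4 of 15 for Irx3, 4 of 9 for Irx5 and 1 of 4 for Irx6. These counts are too small to order the members by this share. The part of gene density in the lower share of the clusters was not tested.
Counted in tags, 13 of 25 on chromosome 13 and 23 of 31 on chromosome 8 ran to far anchors, which lay more than 2 kb from every TSS. Merged where they overlapped, these anchors numbered 8 on chromosome 13 and 13 on chromosome 8. More than a single member was reached by 1 of the 8 and by 4 of the 13, and all 3 members by 2 of the 13.

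The spans of member loops lay near those of other promoters. The shortest loop of a member spanned 121.0 kb and the longest 1992 kb, and the median was 552.9 kb, against 510.4 kb over the loops of all protein-coding promoters. It was 671.3 kb at the chromosome 13 cluster and 533.5 kb at the chromosome 8 cluster. Among the genes, Irx3 had the shortest median span, 353.6 kb, and Irx6 the longest, 1198 kb over 4 loops. Loops of more than 1 Mb numbered 3 on chromosome 13 and 5 on chromosome 8. A single tag supported 9 of the 14 loops on chromosome 13 (64.3%, 35.1 to 87.2%) and 21 of the 26 on chromosome 8 (80.8%, 60.6 to 93.4%), intervals that include the 77.8% of all protein-coding promoters.

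**Figure D4:**
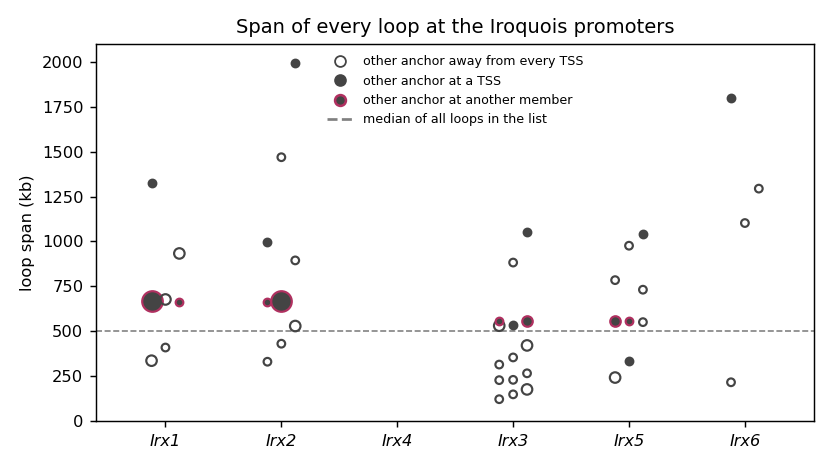
Span in kb (y axis) of every loop at each Iroquois gene (x axis), with point area rising with tags from 1 to 8, filled points where the other anchor lies at a TSS, red rims where it lies at another member, and a dashed line at the median of all loops, 500.3 kb. Open points, which end away from every TSS, make up most of the loops, and no loop is shorter than 121.0 kb.

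Sequence of the anchors was described with a motif that reads the same on both strands, searched in the 2 kb centered on each anchor. For anchors narrower than 2 kb this window includes flanking bases. ACANNTGT, a palindrome bound by Iroquois proteins, occurred in 11 of the 21 far anchors of the members and in 1 of their 9 promoter anchors, some of which overlap, against 41.8% of all anchors. The promoter anchors were rich in G and C (51.5 to 65.7%) and the far anchors less so (39.7 to 53.7%). MboI cut sites numbered 2 to 11 in the promoter anchors and 1 to 8 in the far anchors, with medians of 5 and 4, against a median of 5 over all anchors.

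Other protein-coding genes within 1 Mb of a member were looped in 9 of 18 cases on chromosome 13 and in 5 of 19 on chromosome 8, against 45.8% of all protein-coding genes. On chromosome 13 no neighbor had more than the 3 tags of Tert. Brd9, which encodes the subunit that defines the noncanonical BAF complex, had 2 tags, as did Trip13, Clptm1l and Exoc3. On chromosome 8 the highest scores were 15 tags for Chd9, 6 for Fto, and 2 each for Lpcat2 and Rpgrip1l. Loops to a member were found for 1 of the 18 and 3 of the 19.
Genes around Iroquois function were examined as well, namely targets, opposing patterning factors, upstream signals, neighbors and the related gene Mkx. Of these 20 genes, 13 had a loop, against 45.8% of all protein-coding genes, and the median score was 3.5 with the 7 genes at 0 included. Ptch1, the Hedgehog receptor, had the highest score with 118 tags, followed by Nkx2-2, a ventral neural tube factor, with 27, and Pax6, a factor of the same tissue, with 11. Olig2, which opposes Irx3 in the neural tube, had 4 tags, and Gja5, a connexin gene controlled by Irx3 in the heart, had 5. Loops reached neither Gja1, Kcnd2, Shh, Bmp10, Hand1, Tbx5 nor Mkx. The list thus held no anchor within 2 kb of their starts, and these counts of 0 set no limit on their contacts.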

How the data were processed

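The authors used HiC-Pro for mapping (mm10) and hichipper, which includes a Mango step, for loop calling. Their methods state an FDR under 0.05 and a legend of theirs an FDR under 0.01 before both tumors were merged. The deposited FDR values reached 0.0500, so loops at both levels are in the list. Each loop was deposited with its tag count, a raw number of read pairs, and with an FDR, a p-value adjusted for multiple tests. How counts were merged is not given in the sources used here. The total was 41574 tags, 28657 in the first part of the list and 12917 in the second, which limits any single loop to few tags. Reads without molecular identifiers are not independent molecules, so intervals and limits of 0 cover counting error only.

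Anchors were set to start at 1 and matched to TSSs of all GENCODE vM21 transcripts (GRCm38, the assembly of mm10) within 2 kb. A loop that reached 2 members was counted once in its cluster. The members were the 6 Iroquois genes. Also named were the 3 neighbors within 1 Mb with the highest scores per cluster, with ties, the genes at distal anchors of loops with at least 2 tags or in both parts, the strongest loop of each member, and the 3 highest genes of the related list. Other genes at single-tag loops and on the related list were named after their values were seen. Members and lists were chosen with earlier results of these data known. Sequences were read from RefSeq GRCm38.p6, and 3 of the 6 members were in its promoter table, Irx2, Irx3 and Irx4.

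No test between samples was possible on a merged list, so counts, exact Poisson and Clopper-Pearson 95% intervals and genome-wide shares were given. The assignment was checked on 827 simulated loops, planted inside or outside the 2 kb window, and all were assigned or left unassigned as planted. Only the planted starts were searched, with anchors always to their right. Alternatives covered the promoter window, TSS set, FDR, tags, span, repeated rows, part of the list and loops between members. The other 69 samples, of ChIP-seq and input, were not analysed here. Python 3.11.15, pandas 2.3.3, numpy 2.4.6, scipy 1.17.1 and matplotlib 3.10.9 were used.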

Additional observations from a re-analysis of the deposited data

How the results depend on the processing

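The tags of both clusters and the chromosome 13 share stayed inside their main intervals with promoter windows of 1 and 5 kb, anchor midpoints, protein-coding transcripts, RefSeq TSSs, spans of at least 20 kb, 1 row per pair of anchors, and spans of at most 1 Mb, the last of which was chosen after the values were seen. An FDR under 0.01, or at least 2 tags, left 16 tags on chromosome 13 and 10 on chromosome 8, a share of 61.5%, and an FDR under 0.001 left 14 and 8, a share of 63.6%. These shares lay above the main interval, though their own intervals overlap it. The chromosome 13 cluster then had more tags than the chromosome 8 cluster. At each of these settings, 8 of the chromosome 13 tags came from a single loop, the first-part join of Irx1 with Irx2. The other chromosome 13 loops that were kept had 2 tags each. These settings remove loops, mostly of a single tag. The first part of the list alone gave 14 and 2 tags (87.5%) and the second part 11 and 29 (27.5%), where the 29 stayed inside the interval. Why the parts differ was not tested. Leaving out loops between members gave 16 and 28 tags (36.4%), and leaving out those that join Irx1 to Irx2, chosen after the values were seen, gave 16 and 31 (34.0%). Both shares lay inside the main interval, but the 16 chromosome 13 tags lay just below theirs (16.2 to 36.9). Of 90 loop scores of single members over the 15 settings, 69 stayed inside the interval of the main score and 21 did not. Irx6 had 0 tags at an FDR under 0.01 or 0.001, with at least 2 tags, and in the first part alone, and 1 tag with spans of at most 1 Mb. No paired analysis was possible because the list merges both tumors and there is a single group. No replicate could be left out for the same reason. Depth limits the comparison, since most loops of the members rest on a single tag.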

Other observations

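Inside the stretch between the outermost members, 2 loops with 2 tags on chromosome 13 and 3 loops with 3 tags on chromosome 8 had no anchor at a member promoter. The chromosome 13 anchor between Irx1 and Irx2 that both genes share took part in 5 loops with 6 tags in all, 3 of those tags with members. On chromosome 8, the Fto intron anchor nearer to the Fto end also took part in 5 loops with 5 tags, 3 of them with members, and the one nearer to the Fto start in 4 loops with 5 tags, 4 of them with members.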
